A study of Mus musculus with 6 samples.

Results

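Arg1, Mrc1, Chil3, Chil4, Cd163 and Il4ra are 6 mouse genes that mark or drive alternative activation, the state macrophages enter under the cytokines IL-4 and IL-13. The genes were chosen by name, and a probe was taken as theirs where its annotated gene symbol equals one of the 6. This gave 7 of the 38467 probes and 5 of the 15123 named genes: 2 probes each for Chil3 and Chil4, and 1 probe each for Arg1, Mrc1 and Cd163. Of the 6 genes, 1 was not analysed here, because no probe used here is named Il4ra, which encodes the receptor chain through which both cytokines signal.

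RNA came from the whole antrum, the lower part of the stomach, at postnatal day 14. The mutant animals were homozygous for a germline Kit K641E allele that still carries its Neo selection cassette, written KitK641E:Neo/K641E:Neo in the labels, and the control animals were their KitWT/WT littermates. K641E activates Kit, the receptor tyrosine kinase of the interstitial cells of Cajal and of mast cells, and the allele is present in every cell of the mutant, macrophages included. The 3 littermate pairs were each measured on an array in either dye orientation, giving 6 arrays. The sources used here give neither strain nor sex. A ratio from whole tissue cannot tell more cells of a type from more RNA per cell, and without intensities the presence of a cell type in the antrum could not be checked.

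In mice, IL-4 and IL-13 act through the IL-4 receptor alpha chain and the transcription factor STAT6. Macrophages so activated make arginase 1, which turns arginine into ornithine and urea, the chitinase-like lectins Chil3 (Ym1) and Chil4 (Ym2), and the resistin-like protein Retnla, and they carry the mannose receptor Mrc1 on their surface. Cd163, the receptor that clears haemoglobin bound to haptoglobin, marks many resident tissue macrophages. Arg1, Mrc1, Chil3 and Chil4 do not belong to macrophages alone. Arginase 1 is also the last enzyme of the urea cycle in hepatocytes, and Mrc1 is also found on sinusoidal and lymphatic endothelium. Chil3 and Chil4 are also made by neutrophils and by epithelia, the stomach lining among them in the case of Chil4.

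Each value is a log2 ratio whose likely direction is mutant over wild type, so 1 stands for a 2-fold difference if the logarithm is to base 2. The sources used here state neither base nor direction. The direction assumes red over green, under which the feedback inhibitor gene Spry4 and the surface protein gene Tpbg, both up-regulated according to the title of the published study, had mean ratios of 1.38 and 1.96. Kit had -0.02, 1.89 and 0.81 in pairs 1, 2 and 3. The pairs also differed in other tissues: 11 hepatocyte genes had medians of 0.06, 2.61 and 1.75, 7 pancreatic enzyme genes -2.36, -0.08 and 0.09, and the Y-linked gene Eif2s3y -0.03, -0.05 and -5.06, as in a female mutant beside a male control in pair 3. Whether the differences between pairs below also follow these tissues was not tested.

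The 5 genes fell into 3 patterns. Arg1 was above 0 on all 6 arrays but by very different amounts. Chil3 and Chil4 were far above 0 in pair 1 and far below 0 in pairs 2 and 3. Mrc1 and Cd163 stayed within 0.4 of 0 on every array. The limma test of the 3 pair means against 0 called 0 of the 5 genes in either direction (threshold 0.05 after adjustment over all features), while 3 (Arg1, Mrc1 and Cd163) had an unadjusted p under 0.05. Of all 30649 features, 0.00653% were called by this test, 2 features in number, and 4.9% had an unadjusted p under 0.05. The median ratio of the 5 genes was 0.12, against 0.0035 for all features, and it was 0.79 without pair 2.

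**Figure D1:**
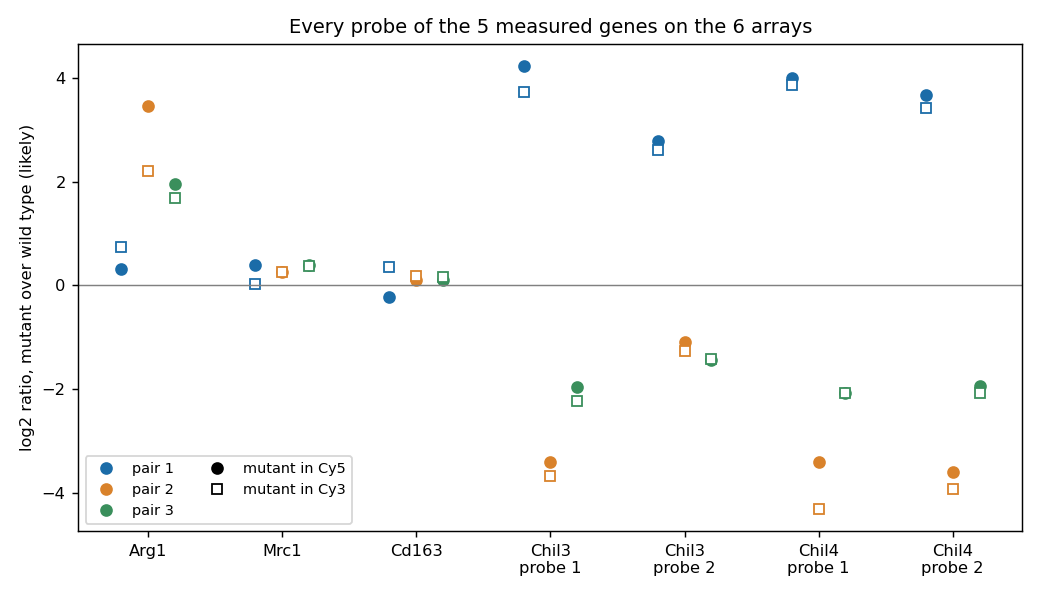
Log2 ratio, likely mutant over wild type, of each of the 7 probes (x axis) on each of the 6 arrays. Colours mark the littermate pair, filled circles the array with the mutant in Cy5 and open squares the array with the mutant in Cy3. All 4 probes of Chil3 and Chil4 lie above 2.6 in pair 1 and below -1.1 in pairs 2 and 3.

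Arg1, the enzyme that turns arginine into ornithine and urea, read 0.317 and 0.731 in pair 1, 3.452 and 2.202 in pair 2, and 1.961 and 1.692 in pair 3, each time with the mutant in Cy5 first. The pairs do not overlap: both arrays of pair 1 lie below 1, both of pair 3 lie between 1.6 and 2, and both of pair 2 lie above 2. As folds of the pair means these are 1.44, 7.10 and 3.55. The mean over pairs was 1.73 ± 0.49 (limma moderated SE, n = 3), a 3.31-fold difference, with a limma adjusted p of 0.923. Being above 0 on all 6 arrays is a property that Arg1 shares with 3.87% of all features and with 2 of the 5 genes, Arg1 and Mrc1.

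The differences between pairs can be set against the differences between the 2 arrays of a pair with a moderated F test (limma, 6 arrays, pair as a factor, with a dye term). That error is technical, so the test compares the 3 pairs of animals with one another and says nothing about genotype. It called 16.7% of all features and 3 of the 5 genes, namely Arg1, Chil3 and Chil4. For Arg1 the limma adjusted p was 0.0192, and it was 0.0886 when pair 1 was left out. The 2 arrays of pair 2 differed by 1.25 for Arg1, which had the largest mean difference between arrays of a pair among the 5 genes, 0.644.

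Some of the genes that share the urea cycle with Arg1 in hepatocytes had ratios above 0.3 in pairs 2 and 3. Otc, the mitochondrial enzyme that joins ornithine and carbamoyl phosphate, had -0.02, 1.86 and 0.80 in pairs 1, 2 and 3. Ass1, which makes argininosuccinate, had -0.38, 1.11 and 0.38. Asl, which splits it into arginine and fumarate, had -0.07, 0.20 and -0.14, Nags, which makes the activator of the first step, had 0.03, 0.34 and 0.08, and the ornithine carrier gene Slc25a15 had -0.07, -0.01 and 0.27. The 6 measured urea cycle genes, Arg1 included, had medians of -0.04, 0.73 and 0.32, and 0 of 6 were called over the 3 pairs.

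Arg1 thus lay next to the hepatocyte medians in pairs 2 and 3, with 2.83 against 2.61 and 1.83 against 1.75, and above them in pair 1, with 0.52 against 0.06. Albumin, Alb, the main plasma protein of liver, had -0.27, 5.58 and 5.14, higher in pair 2 than in pair 3, as Arg1 was, but far larger. The part of liver transcripts in the Arg1 ratio was not tested. Of the hepatocyte genes with the lowest p, the apolipoprotein gene Apoa2 had 0.57, 3.94 and 3.25, the protease inhibitor gene Serpina1a 0.07, 3.97 and 3.45, and the fibrinogen gene Fgb 0.06, 2.61 and 1.75. Afp, the fetal albumin relative in the same hepatocyte list, ran the other way from its list, with 3.12, 0.39 and 1.32.

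Of the enzymes around arginase outside the urea cycle, Odc1 had the largest ratio. Odc1, which turns ornithine into putrescine and opens polyamine synthesis, had 0.09, 1.11 and 1.18 in the 3 pairs and a mean of 0.79 ± 0.26, with a limma adjusted p of 0.923. Arg2, the mitochondrial arginase of another gene, had 0.16, -0.16 and -0.53. The first of its 2 probes had 0.22, -0.57 and -1.05, and the second had 0.10, 0.25 and 0.0015. Nos1, the neuronal nitric oxide synthase, which uses the same substrate, had 0.11 ± 0.04, and the arginine transporter gene Slc7a2 had 0.09 ± 0.05. Among the 11 genes of arginine and polyamine metabolism, 7 were above 0, 4 below, and 0 were called, with a median of 0.03.

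Over the 6 arrays, the named genes whose ratios were closest to those of Arg1 were Gja1, which encodes a gap junction connexin, Prkar2b, a regulatory subunit of protein kinase A, and the membrane protein gene Tmem158. Their root mean square differences from Arg1 were 0.372, 0.411 and 0.442. Gja1 had 0.53, 2.73 and 2.05 in the 3 pairs, Prkar2b 0.39, 2.47 and 1.65, and Tmem158 0.74, 2.88 and 2.01. Being near Arg1 in every pair is how these genes were picked.

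**Figure D2:**
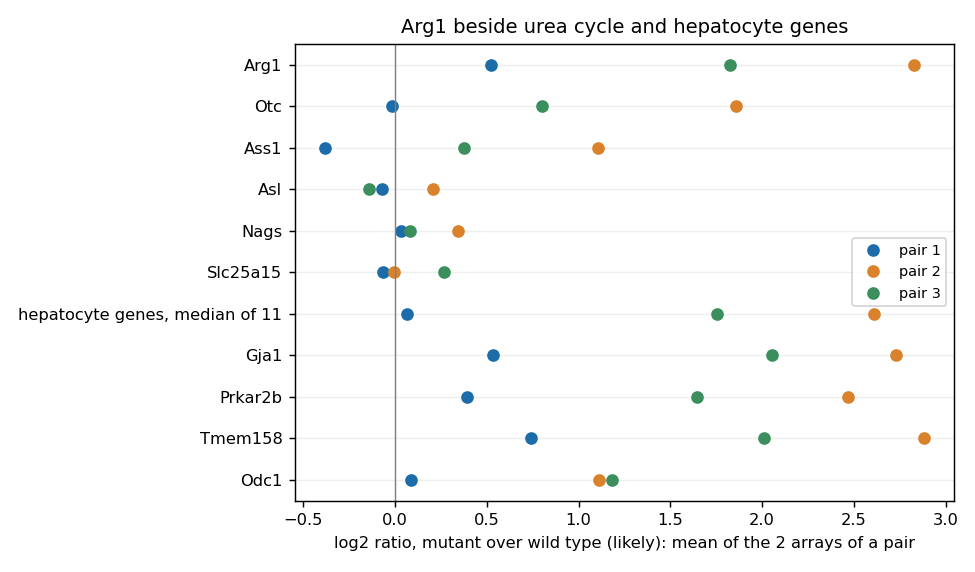
Mean log2 ratio of the 2 arrays of each littermate pair (x axis, colours mark pairs) for Arg1, the other measured urea cycle genes, the median of 11 hepatocyte genes, the 3 genes closest to Arg1 and Odc1. Arg1 at 0.52, 2.83 and 1.83 lies close to Gja1, Prkar2b and Tmem158 in every pair and close to the hepatocyte median in pairs 2 and 3.

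Chil3 and Chil4, lectins related to chitinases that have lost the chitin-cutting activity, are neighbours on mouse chromosome 3 and close copies of each other. Their promoter windows, from 250 bases before to 50 bases after the annotated start, are shown because they make that closeness visible and because both genes had the same sign in every pair. Both lie on the minus strand of GRCm38.p6 (sequences from RefSeq), Chil3 at chr3:106167515-106167814 and Chil4 at chr3:106219430-106219729, and are written 5′ to 3′ along the gene. Capitals mark a match to TTCNNNGAA, the palindrome read by STAT factors with a spacer of 3 bases, and a match to TATAAA.
Chil3: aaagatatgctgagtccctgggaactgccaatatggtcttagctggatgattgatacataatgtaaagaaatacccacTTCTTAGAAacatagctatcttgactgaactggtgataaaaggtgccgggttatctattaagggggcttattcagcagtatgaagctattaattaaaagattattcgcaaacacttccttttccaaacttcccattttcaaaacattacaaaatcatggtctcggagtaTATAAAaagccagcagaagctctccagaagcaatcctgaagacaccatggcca
Chil4: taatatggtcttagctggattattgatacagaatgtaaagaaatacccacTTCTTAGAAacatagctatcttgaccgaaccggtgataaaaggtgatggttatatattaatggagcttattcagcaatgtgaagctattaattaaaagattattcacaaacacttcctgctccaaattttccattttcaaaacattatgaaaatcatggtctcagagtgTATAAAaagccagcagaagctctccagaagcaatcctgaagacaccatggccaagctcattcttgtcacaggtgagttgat

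Over 272 aligned positions the windows were identical at 251 bases (92.3%), with the Chil4 window lying 28 bases further along. The STAT-type match starts at -172 in Chil3 and at -200 in Chil4 and is the same site in the alignment, as is the TATAAA match at -3 and -31, counted from each annotated start. On either strand, TTCNNNGAA occurs in 8.3% and TATAAA in 13.6% of the 32851 promoter windows of the table. TTCNNNNGAA, the form with a spacer of 4 bases that STAT6 prefers, occurs in 6.95% of them. It was found in the window of Retnla, starting at -145, and not in those of Chil3, Chil4, Mrc1, Cd163 or Il4ra. The windows used here include none for Arg1, which was therefore not searched. The window of Chia1, the next gene on the chromosome, aligned to those of Chil3 and Chil4 over 63 and 118 positions only, at 73.0% and 74.6% identity. A match is a description of the letters and not a binding site. Close copies can also bind each other's probes, so the arrays may not separate Chil3 from Chil4.

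The first probe of Chil4 read 3.993 and 3.854 in pair 1, -3.413 and -4.318 in pair 2, and -2.083 and -2.078 in pair 3. The second had 3.674 and 3.418, -3.593 and -3.932, and -1.948 and -2.079. Both probes of Chil4 thus had the same sign and a similar size on every array. The first probe of Chil3 gave nearly the Chil4 values, with 4.225 and 3.717, -3.413 and -3.669, and -1.958 and -2.226. The second probe of Chil3 had the same signs at a smaller size, with 2.781 and 2.613, -1.102 and -1.272, and -1.435 and -1.423. Every probe was therefore high in the mutant of pair 1 and low in the mutants of pairs 2 and 3, on both dye orientations, and the arrays of pair 1 do not overlap with the rest.

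The mean of both probes was 3.73, -3.81 and -2.05 for Chil4 in pairs 1, 2 and 3, and 3.33, -2.36 and -1.76 for Chil3. As folds, Chil4 was 13.3-fold higher in the mutant of pair 1, and 14.1-fold and 4.13-fold lower in those of pairs 2 and 3, while Chil3 was 10.1-fold higher and 5.15-fold and 3.39-fold lower. These opposite differences nearly cancel in the means over pairs, which were -0.71 ± 1.65 for Chil4 and -0.26 ± 1.31 for Chil3 (limma adjusted p 0.967 and 0.984). Leaving out pair 2 turned the sign of both, to 0.84 and 0.79, and leaving out pair 3 turned that of Chil3, to 0.49. Without pair 1 they were -2.93 and -2.06. The spread between pairs does not depend on the assumed direction of the ratio, for these 2 genes or for any other feature.

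Of all 30649 features, Chil4 had the largest standard deviation over the 3 pair means, 3.95, and Chil3 the third largest, 3.13, with Alb between them. Chil4 also ranked first with arrays centred, scaled or quantile normalized and among named genes alone. Arg1 ranked 149th with 1.16. In the moderated F test between pairs the limma adjusted p was 6.4e-05 for Chil4 and 3.1e-05 for Chil3, and both stayed called without any 1 pair (0.0138 and 0.0214 without pair 1). Chil3 and Chil4 were the 2 features that reached 1 or more in pair 1 together with -1 or less in pairs 2 and 3, and 0 had the reverse. These limits follow the signs of both genes themselves, so that both meet them is no separate result. Of the 2 probes of Clca1, taken up below, 1 also met them (2.71, -2.18 and -1.32), while their mean did not.

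Within single pairs, 2 of the 5 genes had a ratio of at least 1 in size with 1 sign on both arrays of pair 1, against 0.597% of all features. In pair 2 it was 3 of 5 against 1.03%, and in pair 3 it was 3 of 5 against 0.763%. Chil3 and Chil4 made up the count in pair 1, and Arg1 joined them in the others. By the size of the pair mean, Chil4 ranked 2nd, 9th and 61st of all features in the 3 pairs and Chil3 3rd, 61st and 96th.

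**Figure D3:**
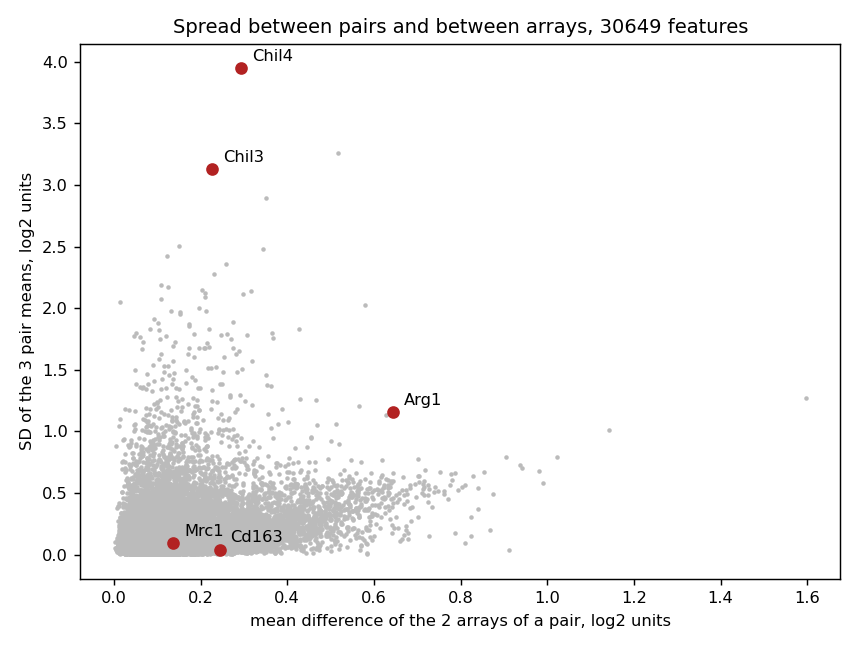
Standard deviation of the 3 pair means (y axis) against the mean difference of the 2 arrays of a pair (x axis), both in log2 units, for all 30649 features (grey) with the 5 genes in red. Chil4 at 3.95 and Chil3 at 3.13 stand near the top with array differences of 0.294 and 0.226, while Mrc1 and Cd163 lie near the bottom at 0.0915 and 0.0391.

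Chia1 was the other member of the chitinase family with a pair mean past 1 in size. Chia1, the acidic chitinase that gastric chief cells secrete in mice, had 0.62, 0.90 and -2.15 in the 3 pairs, so it matched Chil3 and Chil4 in sign in pairs 1 and 3 and not in pair 2, and its mean of -0.21 was 0.76 without pair 3. Chil1, the lectin also called BRP-39, had 0.20, 0.06 and 0.35, and Chil6 had -0.09, 0.19 and -0.42. Ovgp1, the oviduct glycoprotein, had -0.11, -0.02 and -0.11. The lysosomal chitobiase gene Ctbs and Chid1 stayed within 0.16 of 0 in every pair. Of the 8 measured members of the family 0 were called over the 3 pairs, against 0.00653% of all features. In the F test 4 differed between pairs, namely Chil3, Chil4, Chia1 and Chil6, against 16.7% of all features. Of 24 protein-coding neighbours of Chil3 and Chil4 on the chromosome, 16 were measured, and apart from Chia1 the largest pair mean was 0.4745 in size.

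The named gene closest to both was Clca1, which encodes a secreted protein of mucus-making goblet cells that IL-13 induces in mouse airways. Clca1 had 1.62, -1.17 and -0.71 in the 3 pairs, at root mean square differences of 1.35 from Chil3 and 2.11 from Chil4. One of its probes had 2.71, -2.18 and -1.32 and the other 0.53, -0.15 and -0.10, so the probes differ in size and not in sign. After Clca1 came Prap1, a gene of the intestinal lining, for Chil3, with 1.98, -0.72 and 0.10, and Slpi, a protease inhibitor of epithelia and phagocytes, for Chil4, with 0.22, -3.62 and -0.43. These distances are large beside those around Arg1, since few features reach the size of Chil3 and Chil4.

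Markers of other cells that make these lectins were set beside them. Over 12 neutrophil genes the medians were 0.08, 0.18 and 0.07. S100a8 and S100a9, the calprotectin subunits, had means of 1.71 ± 0.04 and 1.87 ± 0.21, the first of them called (limma adjusted p 0.0414 and 0.891). That call was absent with each probe on its own (0.0642), scaling (0.0501), quantile normalization (0.925), either dye orientation alone (0.219 and 0.0644) and any 1 pair left out (0.378 to 1.0). Mmp9, a gelatinase of neutrophil granules, had 0.60, 0.32 and 0.10. Lcn2, an iron-trapping lipocalin of neutrophils and epithelia, had 0.29, 1.24 and 0.24. Over 7 genes of the gastric lining the medians were 0.25, 0.05 and -0.46, with 0.65, 0.60 and -0.54 for the pepsinogen gene Pgc and -0.09, 0.05 and -0.99 for the parietal pump gene Atp4a. In the same list Tff1 had 0.08, -0.42 and -0.36, the signs of Chil3 and Chil4, though its arrays of pair 1 read 0.279 and -0.128. The gastrin gene Gast had 0.25, 0.03 and 0.23. Genes of the squamous forestomach, a list added after the values were seen, had medians of 0.40, -0.06 and 1.81 over 11 members. Among them the keratin gene Krt6a had 1.39, 0.04 and 0.88, Krt14 1.61, -0.15 and 2.29, and the basal cell factor gene Trp63 0.98, -0.06 and 0.59, while Krt4 had 1.74, -0.43 and 3.21, Krt13 1.37, -0.78 and 3.78, and Lor, the cornified envelope protein loricrin, -0.30, 0.78 and 4.48. None of these lists had medians with the signs of Chil3 and Chil4 in all 3 pairs. The eosinophil and mast cell lists, taken up at the end, had medians with these signs at a far smaller size. Those medians were 0.06, -0.13 and -0.04 for eosinophil genes and 0.006, -0.025 and -0.025 for mast cell genes. The 14 general macrophage genes taken up below had medians of -0.56, 0.33 and 0.41, opposite in sign to both genes in every pair. The part of any of these lists in the ratios of both genes was not tested.

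Mrc1, the mannose receptor that takes up glycoproteins and microbes, had the smallest limma p of the 5 genes. On its single probe it had 0.394 and 0.019 in pair 1, 0.260 and 0.253 in pair 2, and 0.399 and 0.369 in pair 3. All 6 arrays are above 0, and pair 1 overlaps the others, while pair 3 lies above pair 2. The mean was 0.28 ± 0.05, a 1.22-fold difference, with an unadjusted p of 0.0072 and a limma adjusted p of 0.923. The pair means of 0.21, 0.26 and 0.38 did not differ beyond the arrays (F test, limma adjusted p 0.543).

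The relatives of Mrc1 lay around 0 on average. Mrc2, the collagen-binding receptor of fibroblasts, had 0.03 ± 0.06 over 3 probes, which differed, with means of 0.05, 0.23 and -0.18. Ly75, the dendritic cell receptor DEC-205, had -0.12 ± 0.06, and Pla2r1, the phospholipase A2 receptor, had -0.05 ± 0.05. Over the 4 genes of this family the median was -0.01. In the test over pairs and the F test 0 were called, against 0.00653% and 16.7% of all features.

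Cd163 read -0.218 and 0.362 in pair 1, 0.102 and 0.188 in pair 2, and 0.100 and 0.166 in pair 3, so pair 1 spans the others. Its mean of 0.12 ± 0.04 (limma adjusted p 0.923) is smaller than the difference of 0.58 between the arrays of pair 1, and with the mutant in Cy5 alone it was -0.005. Of the other measured genes with the scavenger receptor domain of Cd163, Marco, a bacterial receptor of macrophages, had -1.13, 1.81 and 0.91, Ssc5d had 0.10, 0.45 and 0.35, and the lymphocyte receptors Cd5 and Cd6 had -0.07 ± 0.04 and 0.04 ± 0.04. Of these 6 genes, Cd163 included, 0 were called over the 3 pairs.

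General macrophage genes were set beside Mrc1 and Cd163. The 14 measured genes of that list had medians of -0.56, 0.33 and 0.41, with 13 below 0 in pair 1 and 13 above 0 in each of pairs 2 and 3. The complement gene C1qa had -0.88, 0.70 and 0.52, C1qb -1.11, 0.70 and 0.54, and Adgre1, the F4/80 antigen, -0.52, 0.35 and 0.24, with 2 probes that gave a mean of -0.08 and 0.13. Lyz2, lysozyme, had -0.59, 1.33 and 1.11, and 1 of its 4 probes stayed within 0.06 of 0 in each pair. Other members went otherwise. Mertk, a receptor for dying cells, had -0.23, -0.17 and -0.35 and was below 0 on all 6 arrays, Cd14, the endotoxin co-receptor, had 0.20, 0.16 and 0.55 and was above 0 on all 6, and the integrin gene Itgam had -0.09, 0.31 and 0.14. In the F test 11 of the 14 genes differed between pairs, against 16.7% of all features, while Mrc1 and Cd163 were not called. The difference between these 2 genes and the list was not tested.

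**Figure D4:**
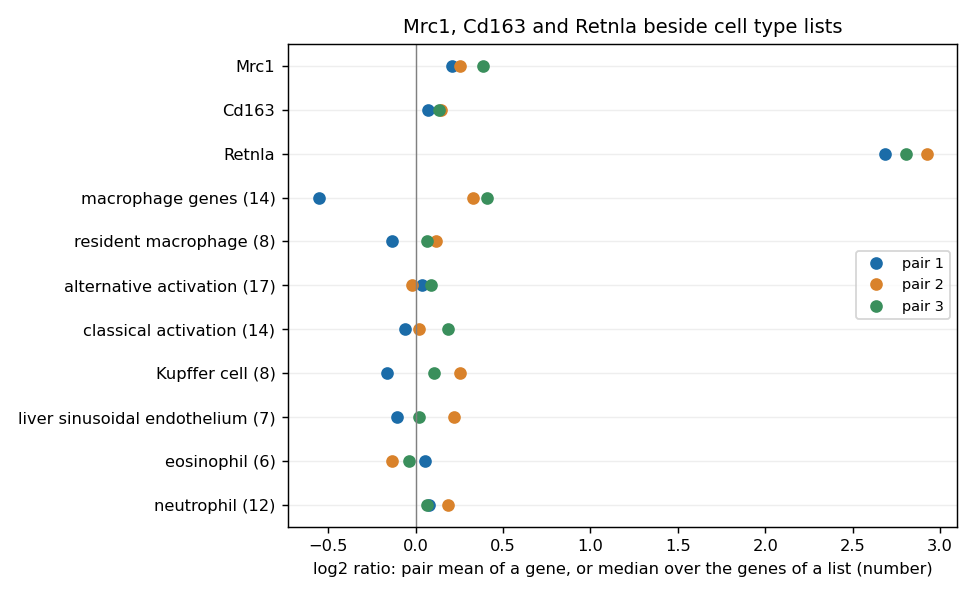
Log2 ratio in each littermate pair (x axis, colours mark pairs) of Mrc1, Cd163 and Retnla, and below them the median over the measured genes of each list, with their number in brackets. Mrc1 and Cd163 lie between 0.07 and 0.38 in all pairs, Retnla near 2.8, and the macrophage list at -0.56, 0.33 and 0.41.

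Mrc1 and Cd163 are also carried by cells of the liver, whose transcripts differed between pairs. The 8 Kupffer cell genes, Cd163 and Marco among them, had medians of -0.16, 0.26 and 0.11. Clec4f, a lectin of Kupffer cells, had 0.22, 0.40 and 0.28, and Vsig4, a complement receptor, had 0.09, 0.26 and 0.17. The 7 genes of liver sinusoidal endothelium, Mrc1 among them, had medians of -0.11, 0.22 and 0.02, with Fcgr2b, an inhibitory antibody receptor also on macrophages, at 0.28, 0.94 and 0.85. Oit3 of the same list had 0.015, 0.13 and 0.02. Resident tissue macrophage genes had medians of -0.14, 0.12 and 0.07 over 8 members. There F13a1, the coagulation factor XIII subunit of such cells, had 0.66, 0.25 and 0.33. Hmox1, the haem-degrading enzyme, had 0.11, 0.03 and 0.51, Gas6, a bridging ligand of Mertk, -0.04, -0.04 and -0.58, the scavenger receptor gene Stab1 -0.22, 0.09 and -0.08, and Timd4, another receptor for dying cells, had -1.04, 0.25 and 0.08.

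The 9 measured genes of IL-4 and IL-13 signalling had mean ratios between -0.12 and 0.37. Il13ra1, the chain that pairs with the IL-4 receptor alpha chain to bind IL-13, had 0.24, 0.33 and 0.53 and was above 0 on all 6 arrays, with a mean of 0.37 ± 0.07 (limma adjusted p 0.923). The kinase gene Jak1 had -0.09, 0.49 and 0.22. It was the 1 gene of the 9 that differed between pairs (F test, limma adjusted p 0.0166), against 16.7% of all features. Jak3 had 0.11 ± 0.07 and Tyk2 -0.12 ± 0.05. Stat6, the transcription factor of the pathway, had -0.04 ± 0.04 over 2 probes. The cytokine genes Il4 and Il13 had 0.12 ± 0.04 and 0.04 ± 0.04, the decoy receptor gene Il13ra2 had -0.01 ± 0.05, and the feedback inhibitor gene Socs1 had -0.01 ± 0.06. Of these 9 genes 0 were called over the 3 pairs, 5 were above 0, and the median was 0.04.

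Of 17 further genes of alternative activation, 1 was called. Retnla, made by the same macrophages and by epithelia, had pair means of 2.68, 2.92 and 2.80 (2.80 ± 0.06, limma adjusted p 0.0414). It missed the threshold with arrays scaled to a common spread, each probe on its own, quantile normalization, only the Cy5 mutant arrays or any 1 pair left out (adjusted p 0.0501, 0.0642, 0.61, 0.219 and 0.224 to 1.0). It thus had neither the spread of Arg1 nor the signs of Chil3 and Chil4. The median of the 17 genes was 0.07, with 11 above 0 and 6 below. The coactivator gene Ppargc1b had -0.22 ± 0.05, the transglutaminase gene Tgm2 0.19 ± 0.09, the scavenger receptor gene Msr1 0.08 ± 0.04, the chemokine gene Ccl17 0.02, -0.14 and 1.05 in the 3 pairs, and the lipoxygenase gene Alox15 0.45, -0.68 and -0.16.

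Genes of the opposite, classical activation state had a median of -0.0045 over 14 members, with 7 above 0, 7 below and 0 called. The interferon-induced chemokine genes Cxcl9 and Cxcl10 had -1.57 and -1.44 in pair 1, against 0.04 and -0.54 in pair 2 and -0.13 and 0.35 in pair 3. The 2 probes of Cxcl9 differed in size in pair 1, with -0.66 and -2.47. For Cxcl10 the arrays of pair 2 read -0.978 and -0.092. The costimulatory receptor gene Cd40 had 0.20 ± 0.12 and the chemokine gene Ccl5 -0.19 ± 0.07.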

How the data were processed

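Antral RNA of 3 littermate pairs was measured on 6 mouse arrays with probes of 70 bases, 2 per pair with the dyes exchanged; amplified RNA was coupled to Cy5 or Cy3, per the labels' protocols. The authors deposited 1 table of log ratios, read here as log2 from their size (largest 5.831, above the 4.8165 a log10 ratio can reach on a 16-bit scanner). Column medians lay between -0.003 and 0.004. The sources used here do not give the background correction or normalization, and intensities were not used.

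The sign of arrays with the mutant in Cy3 was turned. Before turning, both columns of a pair correlated across probes at -0.61, -0.74 and -0.83, so values follow the dyes and the pair is the replicate. Symbols came from the platform annotation (22941 probes with 1 gene, 15123 genes). Probes of a gene were averaged and unnamed probes kept, giving 30649 features. Pair means were tested against 0 with limma (R 4.3.3, limma 3.58.1; lmFit, eBayes, two-sided), with Benjamini-Hochberg adjustment over all features at 0.05. Errors are moderated SEs over 3 pairs, whose number limits the precision. Promoters were aligned locally with Biopython 1.88. Both limma tests were tested on simulated data.

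The genes and lists were chosen with earlier results of these data known. Named are the 6 genes, all measured genes of 4 lists (IL-4 and IL-13 signalling, chitinases, mannose receptors, urea cycle), the 4 lowest p of other lists (pancreas, smooth muscle, lymphocyte and Y-linked genes are mostly given by list or example) and the 3 genes nearest to each of Arg1, Chil3 and Chil4. Arg2, Lor, Krt13, Ccl17, C1qa, C1qb, Timd4 and Alox15, the forestomach list, the chromosomal neighbours and the F test between pairs were chosen after the values were seen. The same holds for the count of features with the signs of Chil3 and Chil4. Alternatives covered averaging, centring, scaling, quantile normalization, pair handling, dye orientation, features tested, variance moderation and leaving out a pair.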

Additional observations from a re-analysis of the deposited data

Results flagged for a closer look

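Over 144 genes and list medians, the 6 arrays were examined for 1 array whose gap to the nearest other exceeds Dixon's limit, and 6 had one. Chance gives about 1 in 20 for independent samples, which the arrays of a pair are not. None of the 5 genes was among them. Ly75, the relative of Mrc1, lay at -0.43 in pair 2 with the mutant in Cy5, against -0.10 to -0.01 elsewhere. Crlf2, a receptor chain for the type 2 alarmin TSLP, read 0.287 on the Cy3 mutant array of pair 3, and the chemokine gene Ccl5 at -0.532 in pair 1 with the mutant in Cy5. The lymphocyte gene Cd2 lay at 1.0 in pair 2 with the mutant in Cy5, the gastrin gene Gast at -0.323 on the Cy3 mutant array of pair 2, and the mast cell factor gene Gata2 at 0.014 on the Cy3 mutant array of pair 1.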

How the results depend on the processing

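Of the 5 genes, 0 were called under any of the 14 alternatives. Arg1 and Mrc1 kept their sign in all of them. Chil3 ran from -2.06 to 0.79 and Chil4 from -2.93 to 0.84 when 1 pair was left out, and Cd163 was -0.0053 with the mutant in Cy5 only. Their median ran from 0.14 to 0.79 with a pair left out (0.79 without pair 2) and was -0.0053 on the Cy5 mutant arrays. The count of all features called, 2 in the reported test, was 0 with each probe on its own, with scaling, without any 1 pair and on the Cy5 mutant arrays, and 1 with quantile normalization and on the Cy3 mutant arrays. It was 108 with 6 independent arrays. The pair as a random replicate block gave 61, and 15 with a dye term, and called 0 of the 5 genes. Features that differ between pairs numbered 5122, and from 2692 to 3791 with a pair left out. Signs also turned for Cd5 (0.019) and Itgam (-0.018) with the mutant in Cy3 only. When a pair was left out they turned for Ass1 (-0.003 to 0.74), Cd2 (-0.027 to 0.32), Cela3b (-1.22 to 0.0145), Prss1 (-1.19 to 0.0353), Kdm5d (-1.05 to 0.0355) and Ccl17 (-0.0578 to 0.54). Sign changes of uncalled genes outside the 5 whose reported mean was smaller than its SE were not counted, among them Chia1 (0.76 without pair 3), Prap1 (-0.31 without pair 1) and Timd4 (0.17 without pair 1). The cause of these changes was not tested beyond the samples left out. Without intensities, probes near background could not be set apart.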

Other observations

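Genes that start type 2 responses, upstream of IL-4 and IL-13, had a median of 0.03 over 7 measured members, and 0 were called. Il33, an alarmin of epithelial and stromal cells, stood apart with 0.73, -1.13 and 1.84 in pairs 1, 2 and 3, and it differed between pairs in the F test (limma adjusted p 0.000198). Il25 had 0.07 ± 0.04 and Tslp 0.07 ± 0.05.

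Eosinophils, a source of IL-4 in the gut, had a list median of -0.05 over 6 genes, with 0.40 ± 0.15 for Prg2, the major basic protein, and -0.05 ± 0.04 for the peroxidase gene Epx, -0.08 ± 0.04 for the eotaxin receptor gene Ccr3 and -0.05 ± 0.06 for Il5ra. Over 10 mast cell genes the median was -0.03, with -0.51 ± 0.15 for Hdc, which makes histamine, -0.19 ± 0.06 for the carboxypeptidase gene Cpa3 and 0.21 ± 0.05 for the protease gene Mcpt2. Over 7 T and B cell genes it was 0.02. Of these 3 lists 0 genes were called. Smooth muscle genes, the bulk of the antral wall, numbered 7, with medians by pair of -0.76, 0.22 and -0.63.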
